A study of Rattus norvegicus with 6 samples.

Results

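The contractile machinery of arterial smooth muscle was examined in the aorta of spontaneously hypertensive rats (SHR) that ran or did not run. It was represented by 10 genes: Acta2, Myh11, Tagln, Cnn1, Cald1, Tpm1, Des, Myl9, Csrp1 and Itga8. The members were all probe sets, each a group of short oligonucleotides that reads 1 transcript region, whose single annotated gene symbol was 1 of these 10. This gave 20 probe sets of the 8799 on the array, and each was kept apart. All 20 passed the filter on dim signals and were tested, among 5244 tested probe sets.

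The study asked how voluntary exercise affects gene expression in the rat aorta. Both groups were of the SHR strain, which becomes hypertensive with age without treatment. Runners had a running wheel in the cage for 5 weeks, and non-runners did not run. Arrays A, B and C were made per group, 3 in each, and RNA of 3 aortae was pooled on each array. The sex and age of the rats, a control strain with normal blood pressure and the cage of the non-runners are not given in the sources used here. How rats were assigned to pools is not stated, so p-values measure only the spread between these arrays, which may be technical. In whole aorta, fewer cells of a type and less RNA per cell cannot be told apart.

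Smooth muscle shortens when myosin filaments pull on actin filaments. Calcium and calmodulin switch on a kinase that phosphorylates the myosin regulatory light chain, and myosin phosphatase reverses this. Thin filament proteins such as tropomyosin, calponin and caldesmon lie along actin and restrain or support the cross-bridge cycle. Desmin links the contractile units, and integrins tie them to the matrix outside the cell. When smooth muscle cells dedifferentiate, as in injured vessels, they lower these genes, many of which are driven by serum response factor with myocardin at CArG boxes.

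The promoter of Acta2, a standard example of such control, is shown for context, since its CArG boxes depart from the strict motif. The RefSeq promoter table (assembly GRCr8, the reference strain and not SHR) held 7 of the 10 genes, in 8 windows, and lacked Myh11, Tagln and Myl9. The 250 bases before the start of Acta2 lie at chr1:241172504-241172753, outside the gene, which is on the minus strand. In capitals are an MCAT element on the opposite strand and then both near-CArG boxes, each with 1 G or C among its 6 inner bases:
Acta2 promoter: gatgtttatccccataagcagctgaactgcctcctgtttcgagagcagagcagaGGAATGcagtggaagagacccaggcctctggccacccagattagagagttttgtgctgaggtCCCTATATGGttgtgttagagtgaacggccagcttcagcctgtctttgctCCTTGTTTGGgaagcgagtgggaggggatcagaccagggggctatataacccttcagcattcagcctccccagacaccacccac
The near-CArG boxes cover bases 134 to 125 and 84 to 75 before the start. With both strands searched in these 250 bases, the near-CArG motif was in 1 of the 8 windows, that of Acta2, and in 6.84% of all 33469 windows. The strict CArG box was in 0 of the 8 and in 1.5% of all. The MCAT element, CATTCC, was in 3 of the 8 (Acta2, Cald1 and Tpm1) and in 12.1% of all. No 2 of these motifs overlapped in the Acta2 stretch. A match describes letters only, since binding was not measured.

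None of the 10 genes changed past the threshold in runners. Of the 20 probe sets, 0 passed an adjusted p of 0.05 by limma, as did 0% of all tested probe sets, and the members' adjusted p ran from 0.520 to 0.987. At an unadjusted limma p under 0.05, 1 member was higher in runners, Itga8, an integrin subunit, and 0 were lower. The same threshold was met upwards by 3.87% and downwards by 4.21% of all tested probe sets. The deposited intensities of the groups did not overlap for 3 of the 20 members. Itga8 and Cald1 were higher in all runner arrays than in all non-runner arrays, and 1 Tpm1 probe set was lower. Of all tested probe sets, 7.38% were higher and 7.49% lower without overlap, so the members' share, 15% for both directions, was near the background.

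A control level was set at an intensity of 40.8, the 95th percentile of 19 probe sets that match yeast genes or the opposite strand and served as negative controls. Of the members, 19 exceeded it on all 6 arrays, and 12 had a mean over 1000. The 95% confidence interval of the difference lay within 2-fold either way for 19 members and within 1.5-fold for 13. The interval that went past 2-fold was that of Myh11 S61948_s_at, from -0.26 to 1.04. All differences are runner minus non-runner on the log2(intensity + 2.4) scale after quantile normalization, and this scale understates changes of dim probe sets.

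**Figure D1:**
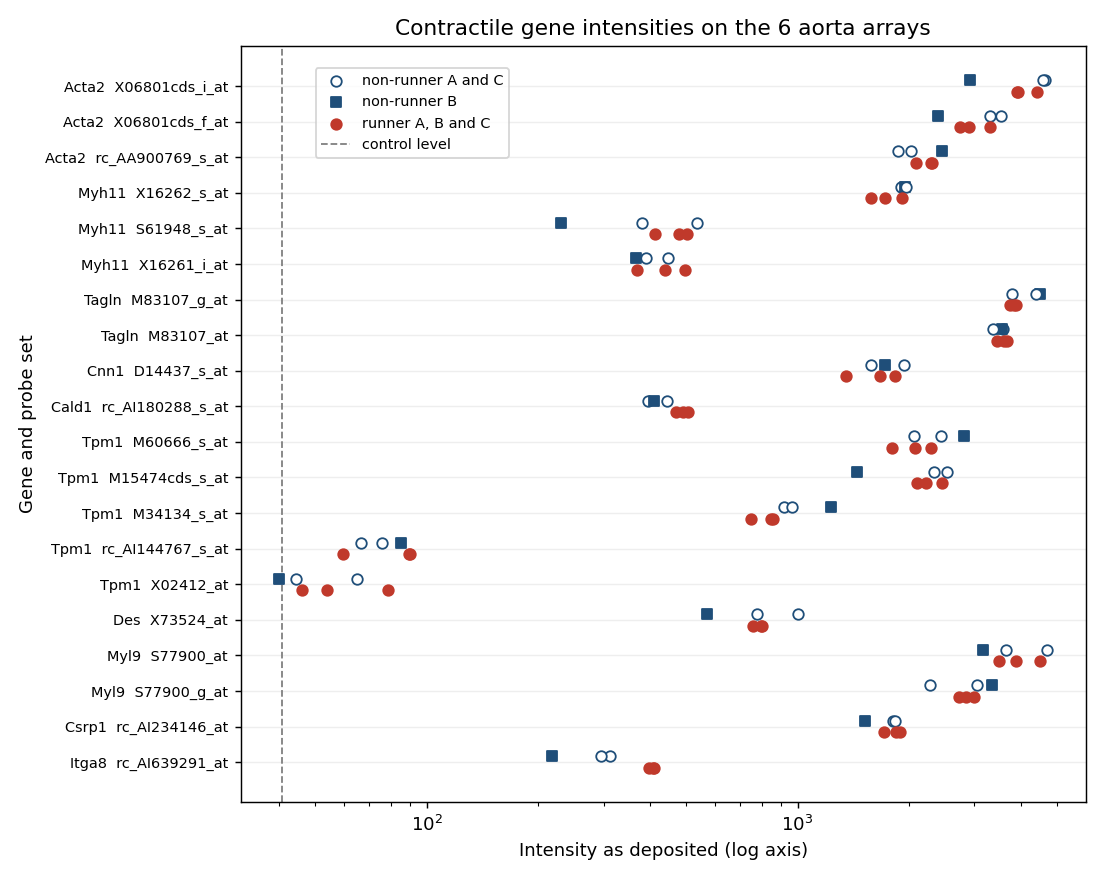
Deposited intensity (log axis) of the 20 contractile probe sets on each of the 6 arrays, non-runners as open circles with non-runner B as a filled square, runners as filled circles, and the control level of 40.8 as a dashed line. Of the 20 probe sets, 10 were lowest on non-runner B and 5 were highest there, and the groups separate only for Itga8, Cald1 and Tpm1 M34134_s_at.

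One array bears on the values that follow. The 3'/5' signal ratio of beta-actin, a measure of RNA quality that increases with loss of 5' signal, reached 2.14 on non-runner B, beside 1.22 to 1.67 on the other arrays. Non-runner B was more than 0.3 log2 units below the mean of non-runners A and C for 9 of the 20 members. It was above that mean by as much for 2. Over all 5244 tested probe sets 1273 were lower and 1417 higher by that margin, so the members leaned low on this array and the whole did not. The median size of the deviation, without its sign, was 0.32 for the members and 0.31 for all. Differences without this array are given beside many of those it moved, but not beside all.

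Acta2 encodes smooth muscle alpha-actin, the main actin of the thin filament. Its probe set X06801cds_i_at measured intensities of 4647.7, 2913.0 and 4594.5 on non-runners A, B and C and 3931.7, 3895.7 and 4412.1 on runners A, B and C. The runners lay inside the range of the non-runners, which was set by the low value on non-runner B. The difference was 0.17 ± 0.22 (log2, SE, limma adjusted p = 0.849), and -0.06 without non-runner B. X06801cds_f_at measured 3307.8, 2384.5 and 3529.8 against 2906.9, 2747.0 and 3298.2, again with non-runner B lowest and the groups overlapping. Its difference was 0.08 ± 0.21 (limma adjusted p = 0.935), and -0.13 without non-runner B.

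The third Acta2 probe set, rc_AA900769_s_at, differed from these on non-runner B. It measured 2018.5, 2445.8 and 1870.5 in non-runners and 2307.4, 2083.5 and 2293.9 in runners, with non-runner B highest of all 6. Its difference was 0.12 ± 0.15 (limma adjusted p = 0.840). The estimates of all 3 Acta2 probe sets were above 0, but those of both X06801 probe sets fell below it when arrays were only centred on their medians (-0.0082 and -0.07). A further 4 probe sets were annotated to both Acta2 and cardiac actin, Actc1, and were not counted as members. The groups overlapped in all 4.

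Tpm1, alpha-tropomyosin, a coiled rod along the actin groove, had 5 probe sets, and they pointed both ways. M34134_s_at was lower in every runner, at 747.7, 846.4 and 856.8 against 917.1, 1232.3 and 965.6, so the groups did not overlap. Its difference was -0.31 ± 0.17 with an interval from -0.69 to 0.07 (limma adjusted p = 0.670), and it ran from -0.38 to -0.16 over all 18 alternatives, at -0.19 without non-runner B. M60666_s_at measured 2060.2, 2814.3 and 2443.8 in non-runners and 2287.5, 1793.5 and 2076.5 in runners, with a difference of -0.22 ± 0.17 (limma adjusted p = 0.756), or -0.13 without non-runner B. On both, non-runner B was the highest array.

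The next Tpm1 probe set went the other way on that array. M15474cds_s_at measured 2338.4, 1444.3 and 2532.3 in non-runners and 2448.2, 2098.4 and 2214.6 in runners, with the lowest value on non-runner B. Its difference of 0.18 ± 0.23 (limma adjusted p = 0.849) became -0.09 without that array. Both remaining Tpm1 probe sets were dim, and the groups overlapped in each. X02412_at ran from 40 to 64.7 in non-runners and from 46.1 to 78.8 in runners (difference 0.23 ± 0.25, or 0.11 without non-runner B), with that array under the control level. For rc_AI144767_s_at the ranges were 66.7 to 85.0 and 59.6 to 90.2 (difference 0.06 ± 0.21, or 0.13 without non-runner B). Tpm1 is known to give many spliced forms, and the form that each probe set reads was not settled here.

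Cald1 encodes caldesmon, an actin-binding protein that inhibits myosin's ATPase. Its probe set measured 395.6, 409.0 and 444.0 in non-runners and 468.8, 506.7 and 490.1 in runners. Every runner was above every non-runner, by a narrow margin. The difference was 0.24 ± 0.14 with an interval from -0.08 to 0.57 (limma adjusted p = 0.692), and it stayed between 0.18 and 0.29 over 18 alternatives. Non-runner B lay between non-runners A and C here.

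Cnn1 encodes calponin, another inhibitor of the actin-activated ATPase and a marker of differentiated smooth muscle. It measured 1576.2, 1722.8 and 1932.8 in non-runners and 1827.7, 1351.4 and 1670.6 in runners. The groups overlapped, and runner B was the lowest array. The difference was -0.10 ± 0.17 (limma adjusted p = 0.889), and 0.02 without runner B.

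Tagln encodes transgelin, or SM22, a calponin-related actin-bundling protein. M83107_at measured 3589.7, 3568.8 and 3369.8 in non-runners and 3673.9, 3450.6 and 3595.8 in runners (difference 0.15 ± 0.14, limma adjusted p = 0.782). M83107_g_at, designed on the same transcript, measured 3792.4, 4518.4 and 4402.7 against 3734.0, 3873.9 and 3845.1. The groups overlapped for both. The second estimate was -0.15 without quantile normalization and 0.01 ± 0.14 with it (limma adjusted p = 0.987). The M83107_at groups separated on the normalized scale only, and its estimate turned to -0.02 with median centring.

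Myh11 encodes the smooth muscle myosin heavy chain, the motor of the thick filament and a gene largely restricted to smooth muscle. X16262_s_at measured 1902.2, 1949.9 and 1964.2 in non-runners and 1914.2, 1574.7 and 1723.4 in runners. Runner A lay among the non-runners while runners B and C lay below them (difference -0.13 ± 0.15, limma adjusted p = 0.825). S61948_s_at measured 380.5, 229.7 and 535.3 against 413.2, 504.8 and 479.4, and the runners fell inside the wide non-runner range. Its difference of 0.39 ± 0.28 (limma adjusted p = 0.749) was 0.08 without non-runner B. X16261_i_at ran from 366.6 to 448.5 in non-runners and from 369.5 to 497.5 in runners, with a difference of 0.10 ± 0.17 (limma adjusted p = 0.893), or 0.03 without non-runner B.

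Myl9 encodes the myosin regulatory light chain of smooth muscle, whose phosphorylation starts contraction. S77900_at measured 3659.4, 3167.3 and 4708.7 in non-runners and 3874.7, 4499.5 and 3484.4 in runners (difference 0.16 ± 0.18, limma adjusted p = 0.827). S77900_g_at measured 2279.7, 3343.6 and 3050.7 against 2844.7, 2986.5 and 2721.6 (difference 0.05 ± 0.17, limma adjusted p = 0.954). In both, the runners lay within the span of the non-runners. Non-runner B was lowest in the first and highest in the second, at -0.33 and 0.33 log2 units from the mean of non-runners A and C, and without it the differences were 0.04 and 0.16.

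**Figure D2:**
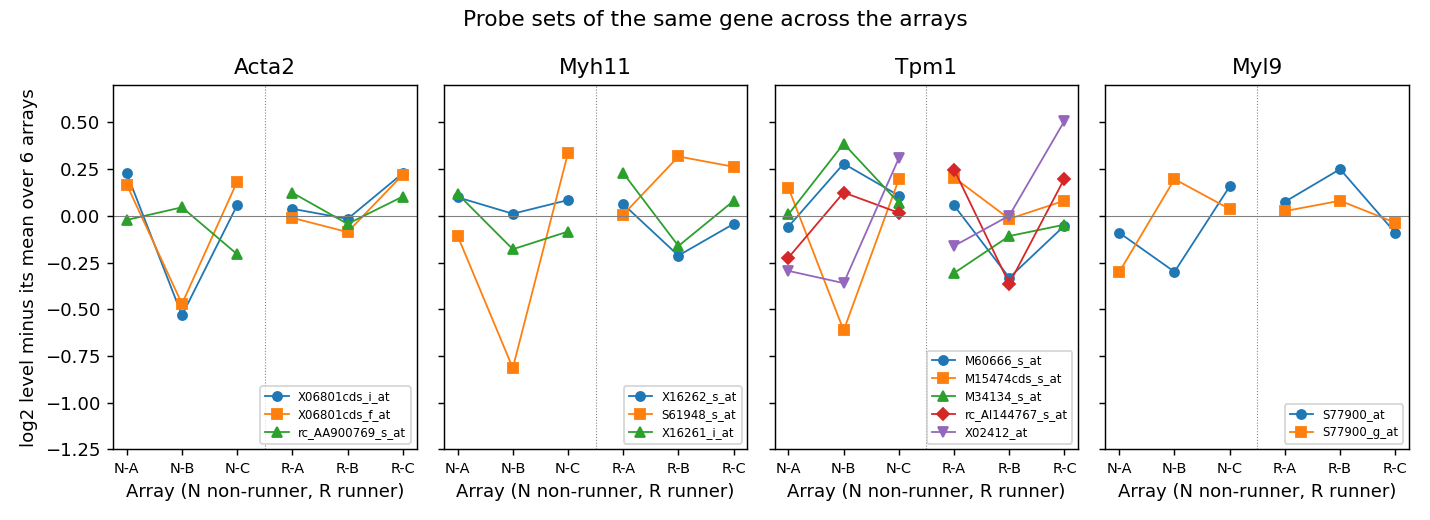
Normalized log2 level of each probe set minus its mean over the 6 arrays, for Acta2, Myh11, Tpm1 and Myl9, with non-runners (N) left and runners (R) right of the dotted line. On non-runner B, probe sets of Acta2, of Tpm1 and of Myl9 lie on opposite sides: relative to the mean of non-runners A and C, Acta2 X06801cds_i_at was at -0.67 and rc_AA900769_s_at at 0.16, and Tpm1 M15474cds_s_at at -0.79 and M34134_s_at at 0.35.

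Des encodes desmin, the intermediate filament protein of muscle. It measured 1000, 568.6 and 779.5 in non-runners and 804.4, 757.8 and 798.9 in runners. The runners sat close together inside the non-runner range. The difference was 0.04 ± 0.22 (limma adjusted p = 0.970), and -0.16 without non-runner B, the lowest array.

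Csrp1 encodes a LIM-domain protein of the actin cytoskeleton that serves as a cofactor for serum response factor. It measured 1807.8, 1515.7 and 1834.6 in non-runners and 1886.2, 1706.0 and 1840.5 in runners. The groups overlapped, with array B the lowest of each. The difference was 0.10 ± 0.16 (limma adjusted p = 0.873), and it was -0.0045 without non-runner B.

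Itga8, the integrin alpha-8 subunit, pairs with beta-1 to bind fibronectin and other matrix proteins and marks contractile vascular smooth muscle. It measured 311.2, 217.6 and 294.9 in non-runners and 396.4, 411.2 and 408.5 in runners. The lowest runner was above the highest non-runner, and the runners were tightly grouped. Means were 275 ± 50 and 405 ± 7.88 (SD, n = 3), a 1.48-fold higher level. The log2 difference was 0.56 ± 0.18 with an interval from 0.16 to 0.97 (limma unadjusted p = 0.0122, adjusted p = 0.520), so it did not pass the threshold over all probe sets.

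The Itga8 estimate was positive under all 18 alternatives, from 0.36 to 0.65, with limma adjusted p from 0.301 to 0.885. Without non-runner B, its lowest array, the difference was 0.41 (limma adjusted p = 0.454). When the beta-actin ratio entered the fit as a covariate the difference was 0.36 (limma adjusted p = 0.885). No member then had an unadjusted limma p under 0.05.

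**Figure D3:**
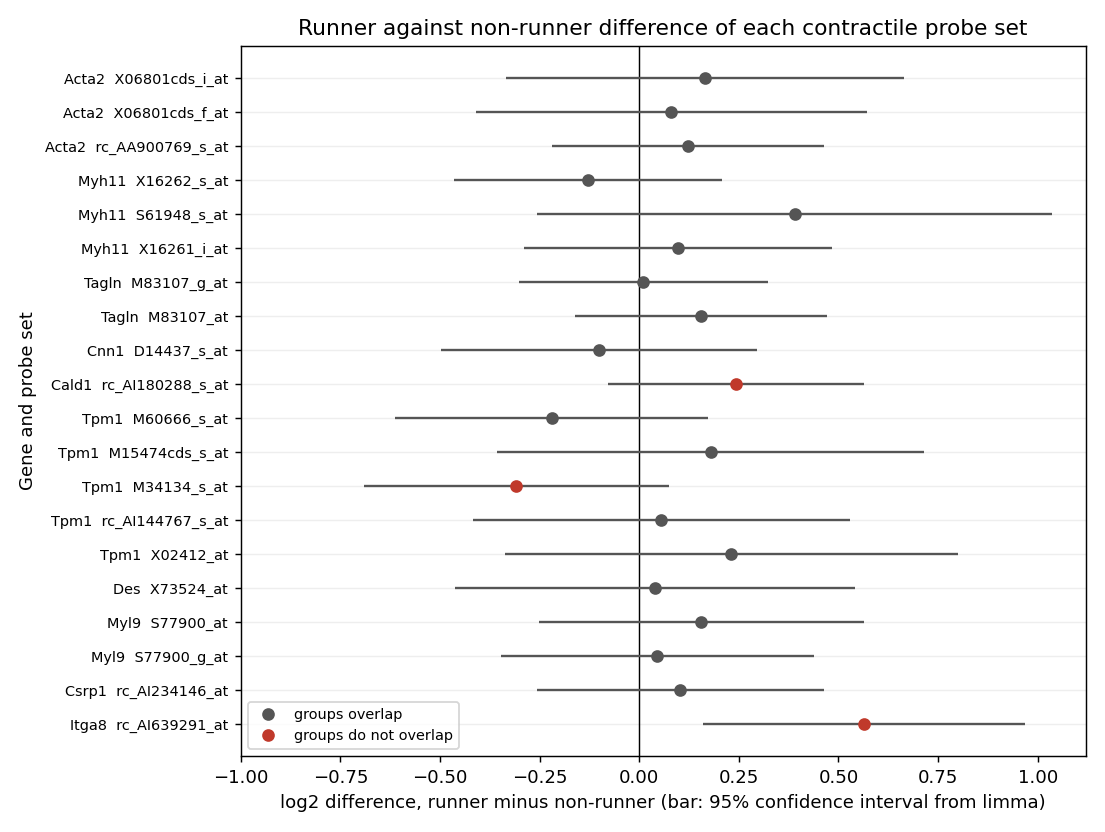
Runner minus non-runner log2 difference of each of the 20 contractile probe sets (points) with its 95% confidence interval from limma (bars), in red where deposited intensities of the groups did not overlap. The interval of Itga8 is the only one of the 20 that leaves out 0, and 14 estimates lie within 0.2 of it.

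Across the 20 probe sets, 16 estimates were above 0 and 4 below, with a median of 0.10 beside -0.00 for all tested probe sets, but this split depended on the scaling. It was 13 to 7 without quantile normalization, with a median of 0.05, and 10 to 10 with arrays centred on their medians, with a median of 0.00 beside -0.04 for all. Without non-runner B it was 11 to 9, with a median of 0.03. With the beta-actin ratio as a covariate it was 10 to 10, with a median of -0.01. Bright signals shift with scaling as a class: the 250 tested probe sets with a mean over 1000 had a median of 0.01 with quantile normalization, -0.05 without it and -0.10 with median centring.

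Spread within the groups was also compared. The SD of the deposited intensity was smaller in runners for 15 of the 20 members. On the normalized log2 scale it was larger in non-runners for 14 of 20, or 70%, against 65.3% of all tested probe sets. The member score, the mean of the centred log2 levels of the 20 probe sets, was -0.01, -0.18 and 0.06 on non-runners A, B and C and 0.06, -0.03 and 0.11 on the runners. The groups overlapped, and non-runner B was lowest. Summed member intensity ran from 34937 to 39785 in non-runners and from 35570 to 37101 in runners.

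The wider contractile apparatus, in lists that reach from other actins to transcriptional regulators, had 86 tested probe sets of 56 genes, out of 101 genes listed. Of these, 0 passed the adjusted threshold by limma, against 0% of all. Unadjusted limma p was under 0.05 for 2 upwards and 2 downwards, against 3.87% and 4.21% of all. Estimates were above 0 for 50 and below for 36, with a median of 0.03, and the split was 40 to 46 with median centring. The groups did not overlap for 4 higher and 6 lower probe sets, against 7.38% and 7.49% of all. Those with an unadjusted p under 0.05 included Pfn1, which was higher, and both that were lower, of Klf4 and Plec.

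Regulators of contractile genes had 4 tested probe sets, 2 above 0 and 2 below, and both of the latter read Klf4. Klf4 is a zinc finger factor that represses contractile genes when smooth muscle dedifferentiates, and endothelium and blood cells express it too. L26292_at measured 368.6, 509.8 and 369.6 in non-runners and 300.8, 287.7 and 227.4 in runners, without overlap. Its difference was -0.63 ± 0.20 (limma unadjusted p = 0.0127, adjusted p = 0.520), and -0.47 without non-runner B, its highest array. L26292_g_at, on the same transcript, averaged 381 ± 86.5 and 273 ± 42.5 (SD, n = 3, difference -0.48 ± 0.21, or -0.29 without non-runner B), with groups that overlapped by a narrow margin. Gata6, a factor of differentiated smooth muscle, averaged 224 ± 31.2 and 264 ± 19.9 with overlap (difference 0.22 ± 0.16, or 0.13 without non-runner B). Mef2d averaged 73.6 ± 39.0 and 99.8 ± 15.7 with overlap, and its difference of 0.58 ± 0.41 was 0.04 without non-runner B.

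The pathway that sets myosin phosphorylation had 21 tested probe sets, 13 above 0 and 8 below, with a median of 0.08. Of the 21, 1 was higher in runners without overlap and with an unadjusted limma p under 0.05, against 7.38% and 3.87% of all tested probe sets. Ppp1r12a, the targeting subunit of myosin phosphatase, had 3 probe sets. S74907_at averaged 82.7 ± 43.7 and 106 ± 8.07 (difference 0.45 ± 0.31, or 0.15 without non-runner B), and the differences of U50185_at and U50185_g_at were 0.19 ± 0.21 and 0.15 ± 0.23. Ppp1cb, a catalytic subunit of that phosphatase, averaged 949.0 ± 117 and 799 ± 111 by S78218_at (difference -0.23 ± 0.17), and the difference of S78218_g_at was -0.10 ± 0.19. The groups overlapped in these 5 probe sets.

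Dense plaques, the sites where actin and integrins meet, had 21 tested probe sets, 9 above 0 and 12 below, with a median of -0.01. Itga1, a collagen-binding integrin subunit, averaged 123 ± 52.4 and 179.9 ± 26.2 (difference 0.62 ± 0.29, limma adjusted p = 0.645) and the groups overlapped. Itga7, a laminin-binding subunit of muscle, had 3 probe sets. By X65036_at it was lower in all runners, at 550.5, 531.6 and 550.2 against 611.9, 882.3 and 666.4. Its difference was -0.35 ± 0.17 (limma adjusted p = 0.649), and -0.20 without non-runner B. X65036_g_at, on the same transcript, was also lower without overlap (difference -0.21 ± 0.14), while X74293_s_at overlapped, at 58.9 to 79.1 and 41.5 to 85.4 (difference -0.17 ± 0.27). Pdlim5, a PDZ-LIM protein of the actin cytoskeleton, was higher in all runners by U48247_at, with means of 104 ± 29.8 and 138 ± 3.10 (difference 0.43 ± 0.22, limma adjusted p = 0.651), and 0.18 without non-runner B. By U48247_g_at, on the same transcript, the groups overlapped, at 190.3 to 274.1 and 239.2 to 256.3 (difference 0.11 ± 0.17).

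Actin turnover genes had 8 tested probe sets, 6 above 0 and 2 below, with a median of 0.08. Pfn1, profilin, which loads actin monomers onto growing filaments, measured 881.9, 532.5 and 548.2 in non-runners and 1006.4, 874.2 and 968.8 in runners. Non-runner A overlapped the runners. The difference was 0.58 ± 0.22 (limma unadjusted p = 0.0308, adjusted p = 0.581), 0.46 without non-runner B and 0.26 with the beta-actin ratio as a covariate.

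Intermediate filament genes had 5 tested probe sets, 2 above 0 and 3 below. Plec, plectin, which links filaments to adhesions, averaged 72.9 ± 2.87 and 53.4 ± 11.5 by U96275_at, without overlap (difference -0.46 ± 0.19, limma unadjusted p = 0.0424, adjusted p = 0.596). By X59601_at it averaged 368 and 355 with overlap (difference -0.08 ± 0.16). Nes, nestin, averaged 103 ± 7.24 and 118 ± 7.13, without overlap (difference 0.19 ± 0.14). Other thin filament genes had 12 tested probe sets, 7 above 0 and 5 below, with a median of 0.03. Among them Actg1, a cytoplasmic actin, averaged 2992 ± 488 and 3258 ± 210 (difference 0.24 ± 0.17, or 0.11 without non-runner B). Actg2, the actin of visceral smooth muscle, averaged 831 ± 108 and 719 ± 31.9 (difference -0.18 ± 0.15, or -0.11 without non-runner B). Tpm3, another tropomyosin, averaged 63.8 ± 26.2 and 92.1 ± 15 by rc_AA859305_s_at (difference 0.57 ± 0.31, or 0.19 without non-runner B). By its other tested probe sets the difference was 0.03 ± 0.17 (S82383_s_at) and -0.39 ± 0.28 (L24776_at, below the control level on all arrays). The groups overlapped for all of these.

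The other myosin chains had 6 tested probe sets, 2 above 0 and 4 below, with a median of -0.06. Myl6b, an essential light chain, averaged 745 ± 67.2 and 617 ± 72.1 (difference -0.26 ± 0.15) with overlap. Genes that mark the synthetic state of smooth muscle, in which cells make matrix and contract less, had 14 tested probe sets, 10 above 0 and 4 below, with a median of 0.06. Of the 10 above 0, 5 read Fn1, and both Klf4 probe sets were among the 4 below. Spp1, osteopontin, measured 1254.8, 1249.2 and 1215.6 in non-runners and 1415.1, 1545.0 and 1267.9 in runners, without overlap (difference 0.20 ± 0.14, limma adjusted p = 0.743). Fn1, fibronectin, a ligand of the integrin that Itga8 forms, had 5 tested probe sets, all with overlap. M28259cds_at averaged 51.5 ± 27.6 and 72.6 ± 19.6 (difference 0.55 ± 0.37, or 0.21 without non-runner B). The other 4 had differences from 0.08 (U82612cds_at) to 0.37 (X05831cds_at), and X05834_at averaged 1995 and 2055 (difference 0.13 ± 0.14). X05831cds_at was below the control level on all arrays, at 24, 9.5 and 24.7 in non-runners and 23.1, 27.6 and 24 in runners. U82612cds_g_at measured 390.8, 176.7 and 415.7 against 360.6, 387.8 and 406.7 (difference 0.33 ± 0.31). Both were lowest on non-runner B.

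**Figure D4:**
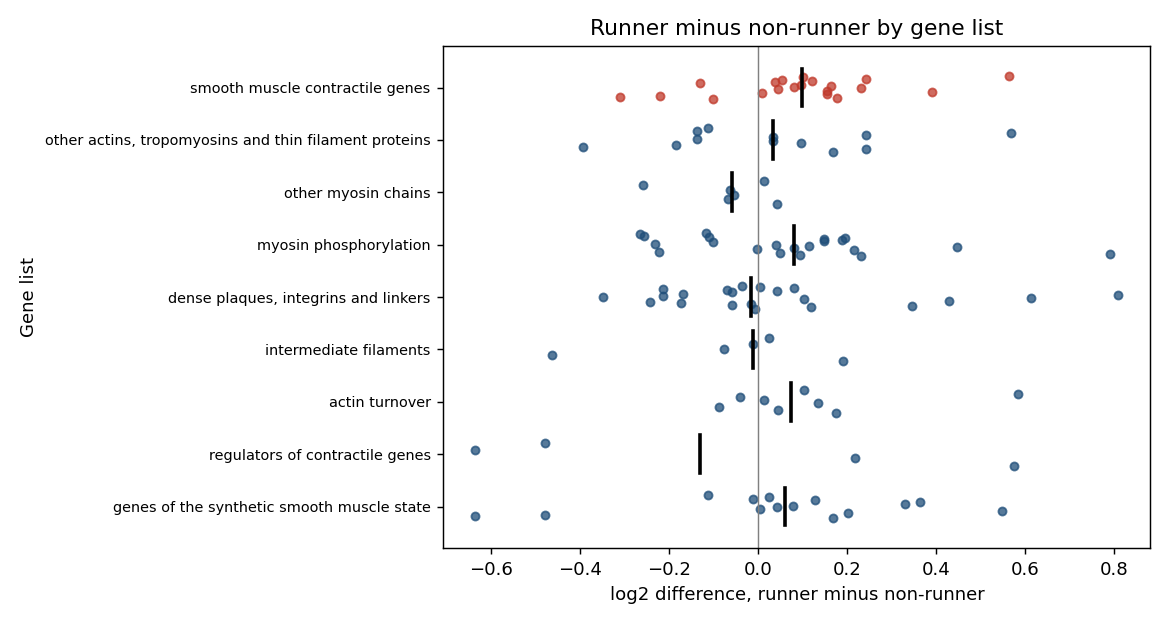
Runner minus non-runner log2 difference of each tested probe set (points) by gene list, with the list median as a black bar and the 10 smooth muscle contractile genes in red. List medians lie between -0.13 and 0.10, and no probe set in the plot passed an adjusted p of 0.05. The contractile median of 0.10 was 0.00 with arrays centred on their medians.

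Markers of other cell types were read on the same arrays. For skeletal and cardiac muscle, 19 of 25 probe sets were below the control level on all arrays, and none was at 0. The list summed to 575 to 794 in non-runners and 498 to 684 in runners. Of the actins with which Acta2 can share sequence, Actc1 ran from 3.5 to 14.2 by its only probe set with 1 symbol, and Acta1 from 92.6 to 211.2. X80130cds_f_at, annotated to both Acta2 and Actc1, ran from 130.7 to 212.5, and which of them it reads was not settled. Fibroblast markers summed to 25347 to 27778 and 25501 to 27068, and adipocyte markers to 5462 to 8160, lowest on non-runner B, and 6373 to 7314.

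Some marker lists separated the groups by 1 measure but not by the other, summed intensity or score, the mean of centred log2 levels. Nerve and Schwann cell markers summed to 1649 to 1791 in non-runners and 1193 to 1487 in runners, with 6 of 16 probe sets below the control level on all arrays. Their score overlapped, from -0.03 to 0.34 and from -0.45 to 0.25. The brightest of these probe sets, Pmp22 S55427_s_at, measured 897.2, 1170 and 963.1 in non-runners and 814.2, 770.8 and 784.2 in runners. It made up a large part of each sum and itself did not overlap between the groups. The sum without it was not computed, so separation of the sum is not shown for the other probe sets. The endothelial score ran from 0.01 to 0.28 in non-runners and from -0.20 to -0.05 in runners, while summed endothelial intensities overlapped, at 729 to 946 and 752 to 790. Of the 16 endothelial probe sets, 8 were below the control level on all arrays. Of the 11 tested, 3 estimates were above 0 and 8 below, and the largest, of Egfl7 rc_AA893770_g_at, was -2.04 ± 0.37. The other Egfl7 probe set was below the control level on all arrays. The endothelial score without Egfl7 was not computed, so its separation is not shown for the other endothelial probe sets. The blood and macrophage score ran from -0.15 to -0.04 and from -0.02 to 0.22, while the summed intensities overlapped, at 3443 to 4058 and 4046 to 6553. This list pools globins with macrophage genes, and of its 14 tested probe sets 9 were above 0 and 5 below. The largest differences were those of the globins, 0.85 (Hbb) and 0.80 (Hbb-b1), and the lowest was that of Cd74 X13044_g_at, -0.57. Other Cd74 probe sets were at -0.23 (X13044_at), -0.04 (X14254cds_at) and 0.39 (X14254cds_g_at). The blood and macrophage score without globins was not computed, so its separation is not shown for the other probe sets of this list. No marker on these lists was at 0 on any array. The part of these cell types in the values of Itga8 and Klf4 was not tested.

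By pattern over the 6 arrays, the probe sets most like Acta2 X06801cds_i_at were those of Grina, Lipe, Vegfa and Fkbp1a. Their mean absolute difference from it in centred log2 level ran from 0.030 to 0.059, beside a median of 0.27 over all tested probe sets. Like it, all 4 were lowest on non-runner B, and 0 of them were again among the nearest 4 without quantile normalization. The nearest to Itga8 were Fkbp1a (by another probe set), Ctsd, Ccnd3 and Atic, at 0.049 to 0.058, beside a median of 0.32, and 2 of these 4 were kept without quantile normalization. For all 4 the runners were above the non-runners without overlap. All were chosen by likeness over these same arrays, so the traits they share with Acta2 or Itga8 follow from the choice. These likenesses rest on 6 arrays, each of pooled RNA, and carry no test.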

How the data were processed

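The authors deposited 1 linear intensity per probe set and array; the software and its scaling are not given in the sources used here, nor is a background for each probe. Array medians ran from 28.5 to 32.2, and the highest was 1.13 times the lowest. Gene symbols came from the platform annotation, in which 7006 probe sets had 1 symbol, 308 several and 1426 none, beside 59 controls. Gene identifiers of 6985 probe sets matched the GRCr8 table, which changed 0 symbols.

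A pseudocount of 2.4 (the 10th percentile of positive values) was added to each intensity before log2, and arrays were quantile normalized. Controls and the dimmest 40% were left out. Groups were compared with limma 3.58.1 (lmFit, eBayes, two-sided) in R 4.3.3, Benjamini-Hochberg adjusted over 5244 probe sets, threshold 0.05, and the fit was tested on simulated data. An exact permutation test of 3 against 3 cannot go below p = 0.1 and was not used. The number of arrays limits the precision. Same-lettered arrays did not deviate together (r from -0.09 to -0.04), so letters were not used as pairs.

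Members and lists were chosen with earlier results of these data known. All members are described. From each wider list, genes were named among the 4 probe sets with the smallest p, other probe sets of a named gene were added after their values were seen, and 1 result is not reported here. Likeness was measured from the brightest probe set of Acta2 and of Itga8. Groups were said to overlap or not on the deposited intensities unless the text says otherwise. Figures were drawn with matplotlib 3.10.9.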

Additional observations from a re-analysis of the deposited data

How the results depend on the processing

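No member or wider contractile probe set passed the threshold under any of the 18 alternatives (other pseudocounts, scalings, filters, variance models, array weights, a covariate, a replicate block, and leaving out each array). Of 360 member values, 329 kept their direction and 31 reversed. Without quantile normalization, Acta2 X06801cds_f_at was -0.027, Tagln M83107_g_at -0.15 and Myl9 S77900_g_at -0.0027. With median centring, Acta2 X06801cds_i_at was -0.0082, X06801cds_f_at -0.075, Tagln M83107_g_at -0.19, M83107_at -0.022, Des -0.0030 and Myl9 S77900_g_at -0.051. With array quality weights, Acta2 X06801cds_f_at was -0.094, Tagln M83107_g_at -0.0013, Tpm1 M15474cds_s_at -0.025 and Des -0.048. With the beta-actin ratio as a covariate, Acta2 X06801cds_i_at was -0.18, X06801cds_f_at -0.22, Myh11 X16261_i_at -0.060, Tpm1 M15474cds_s_at -0.15, Des -0.32 and Csrp1 -0.056. The member median then moved from 0.10 to -0.0069. Outside the members, and not in these counts, Ppp1r12a S74907_at (-0.10) and Mef2d (-0.049) reversed with this covariate. The causes were not tested.

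Leaving out each array in turn, the member median ran from 0.03 (without non-runner B) to 0.16. The ranges that crossed 0 were -0.061 to 0.32 for Acta2 X06801cds_i_at, -0.13 to 0.18 for X06801cds_f_at, -0.026 to 0.037 for Tagln M83107_g_at, -0.054 to 0.25 for Tpm1 rc_AI144767_s_at, -0.088 to 0.33 for M15474cds_s_at, -0.093 to 0.16 for Myl9 S77900_g_at, -0.16 to 0.25 for Des, -0.0045 to 0.17 for Csrp1 and -0.19 to 0.024 for Cnn1. Over all tested probe sets, 0 to 4 passed, with 4 without non-runner C and 2 without non-runner A. At unadjusted limma p under 0.05 there were 424, and 286 to 617 over the alternatives. With the chip letter as a replicate block the member median was 0.10 and 0 probe sets passed (359 at unadjusted p under 0.05). The lowest member adjusted p, for Itga8 by limma with array weights, was 0.301. With 3 arrays a group, member differences of about 0.2 lie within the intervals.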
